A study of Mus musculus with 6 samples.

Results

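NMDA receptors are glutamate-gated ion channels that pass calcium when a synapse and its target cell are active together, and in the hippocampus they are known for their role in synaptic plasticity and memory. Each receptor is a tetramer built around GluN1, the obligatory subunit that binds the co-agonist glycine or D-serine and is encoded by Grin1. It is completed by GluN2A to GluN2D (Grin2a to Grin2d), which bind glutamate, or by GluN3A and GluN3B (Grin3a and Grin3b), which bind glycine. These 7 genes were chosen by symbol from the 35935 genes of the expression table. All 7 passed the filter on low counts, and the annotation lists 39 transcripts for them, of which 28 passed it.

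RNA was measured in the hippocampus of 2-week-old female B6J mice, in 3 WT mice and 3 Prmt9 KO mice that lack Prmt9, a protein arginine methyltransferase. Per the study's methods, the floxed exon of Prmt9 was deleted in the whole body with CMV-Cre, so every cell type of the tissue carried the deletion, and the WT mice were littermates. The libraries were made from polyadenylated RNA with a strand-preserving kit, and the comparison asks whether the subunit genes, and the splice forms of Grin1, differed between the genotypes.

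Prmt9 stood at 11.8, 15.2 and 15.0 TPM, a level scaled by transcript length and library size, in the WT mice and at 3.93, 4.61 and 4.67 TPM in the KO mice, a log2 fold change of −1.71 (SE 0.10; edgeR, adjusted p = 0.0325, above the limit of 0.01). It passed the limit with a term for the mice numbered 1 (edgeR, adjusted p = 0.00129), without both of them (edgeR, adjusted p = 0.00119) and in DESeq2 (adjusted p = 9.71e-61). It did not when single mice were left out (edgeR, adjusted p = 0.10 to 0.90), although the log2 fold change stayed between −1.73 and −1.68. Estimated counts summed to between 194098391 and 286771677 per mouse. WT replicate 1 and Prmt9 KO replicate 1 stood apart from the other 4 mice. In a principal component analysis of gene counts, the leading axis took 67.3% of the variance. WT replicate 1 lay at −110.32 on it, KO replicate 1 at −30.68 and the others between 31.56 and 37.68. Their mean transcript length, weighted by TPM, was 1677 and 1853 bases, against 2006 to 2046 bases in the other mice. Summed oligodendrocyte markers were at 2156 and 1127 TPM in these 2 mice and at 8226 to 12004 TPM in the others, and choroid plexus and ependyma markers reached 7288 TPM in WT replicate 1 against 627 to 3353 TPM elsewhere. Excitatory neuron markers, which define the main cells of the tissue, summed to 2389 and 2482 TPM in the mice numbered 1 and to 2771 to 3118 TPM in the others. For each of the 9 marker lists the genotypes overlapped, and 0 markers were at 0 in every mouse. The part of these differences in the values below was not tested, so values are given with and without these mice where they matter.

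The splice forms of Grin1 differ in 3 places, and the sequences that separate them are shown here because the shares below are read from them. The N1 cassette adds a stretch to the extracellular amino-terminal domain, and receptors that carry it are known to respond less to protons and polyamines. The C1 cassette adds a stretch to the intracellular tail that holds an endoplasmic reticulum retention signal and phosphorylation sites. The tail ends either in C2 or, from an acceptor further downstream in the last exon, in C2', which promotes export to the cell surface. GluN1-1 has C1 and C2, GluN1-2 has C2, GluN1-3 has C1 and C2', and GluN1-4 has C2', with the letter a for forms without N1 and b for forms with it. Grin1 (ENSMUSG00000026959) lies on the reverse strand at chr2:25291181-25319187 of GRCm38. The coding sequences below were read from GENCODE transcripts of this build. N1 spans chr2:25311343-25311405 (63 bases, 21 codons) and C1 spans chr2:25294438-25294548 (111 bases, 37 codons). The exon is in capitals, with 20 bases of the neighbouring exons in lower case. The coding part of C2 spans chr2:25292371-25292484 (114 bases, 38 codons), shown with its stop codon in capitals. The coding part of C2' spans chr2:25292063-25292128 (66 bases, 22 codons), of which the start is shown. In C2 transcripts the same bases follow the stop codon, so they are untranslated there.
N1 exon: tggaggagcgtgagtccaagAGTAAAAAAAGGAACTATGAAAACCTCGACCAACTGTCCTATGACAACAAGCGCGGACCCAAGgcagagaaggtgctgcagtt
C1 exon: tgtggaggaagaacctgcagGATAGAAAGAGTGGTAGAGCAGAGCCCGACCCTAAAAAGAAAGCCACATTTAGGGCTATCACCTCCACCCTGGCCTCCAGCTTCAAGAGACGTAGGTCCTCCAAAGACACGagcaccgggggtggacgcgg
C2 coding part: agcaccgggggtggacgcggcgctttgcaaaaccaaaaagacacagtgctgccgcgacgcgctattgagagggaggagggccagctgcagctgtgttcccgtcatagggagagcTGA
C2' start: cagtaccatcccactgatatcacgggcccg

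Both cassette exons keep the reading frame. The letters TAGG, searched on the sense strand as the core of the sites bound by hnRNP A1, occur 2 times in the C1 exon and 0 times in the N1 exon. Of 1756 annotated internal exons of 111 bases, 9.51% hold these letters, as do 4.62% of 1212 internal exons of 63 bases. The letters GCATG, the core of RBFOX sites, and GGGG occur in neither exon. Only exon bases were searched, so sites in the neighbouring introns are not covered.

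Of the 4 cassette shares compared, N1 was the one whose genotype means stood furthest apart relative to the SD. The transcripts with N1 made up 0.111, 0.110 and 0.108 of the TPM of all coding Grin1 transcripts in the 3 WT mice and 0.0518, 0.0579 and 0.0586 in the 3 KO mice. All KO mice lay below all WT mice, and the mice numbered 1, which stood apart in most other values, lay with the others of their genotype. The WT mean was 0.1097 ± 0.0016 and the KO mean 0.0561 ± 0.0038 (SD, 3 mice each). Between mice of the same number, KO minus WT was −0.0593, −0.0521 and −0.0494, and without overlap any matching of the mice gives differences below 0. With 3 mice per genotype the smallest two-sided p of an exact permutation test is 0.1, which it gave here (adjusted p = 0.2 over the 4 shares compared). In the model of all annotated splicing events, the N1 exon had an unadjusted p of 0.00266 and an adjusted p of 1 (limma). Of the 15746 events tested, 11.1% had PSI values, the share of including transcripts, that did not overlap between the genotypes, and 5.65% were lower in every KO mouse. None was called by limma (0 events, 0.0%), where 529 (3.36%) had an unadjusted p below 0.05.

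In TPM, the transcripts with N1 summed to 23.5, 33.3 and 32.4 in WT and to 12.6, 16.8 and 17.4 in KO, without overlap (29.8 ± 5.4 against 15.6 ± 2.6 TPM, SD, n = 3 each). Those without N1 summed to 188, 270 and 268 in WT and to 231, 274 and 279 in KO, where the lowest KO mouse lay between the WT mice. Between mice of one number, KO minus WT was −10.9, −16.5 and −15.0 TPM for the forms with N1 and 43.0, 4.13 and 11.5 TPM for the forms without it. The forms with N1 were thus lower in KO, which their lack of overlap gives for any matching of the mice. The forms without N1 were higher in KO in 3 of 3 same-numbered comparisons, although they overlapped between the genotypes.

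Of the 4 annotated coding transcripts with N1, Grin1-207 (GluN1-4b, with C2' and without C1) held nearly all of this TPM. Grin1-203 (GluN1-2b), Grin1-204 (GluN1-1b) and Grin1-208 (GluN1-3b) had means of 0.044, 0.109 and 0.079 TPM in WT and of 0.000954, 0.00188 and 0.000783 TPM in KO. Short paired reads seldom reach from N1 to the last exons, and the quantification shares reads among annotated transcripts, so these values do not resolve which tails the N1 transcripts have. In the annotation the 4 transcripts with N1 also begin at another 5' end than those without it, and reads of N1 and of that 5' end were not separated here. Grin1-207 was at 23.5, 32.9 and 32.2 TPM in WT and at 12.6, 16.8 and 17.4 TPM in KO. Its log2 fold change was −0.98 (SE 0.11; edgeR, unadjusted p = 1.01e-04, adjusted p = 1 over 75554 transcripts). Of these transcripts 1.61% had an unadjusted p below 0.05 and 0 were called (0.0%). Over the other settings tried its log2 fold change ran from −1.02 to −0.92 and its adjusted p from 0.114 to 1.

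**Figure D1:**
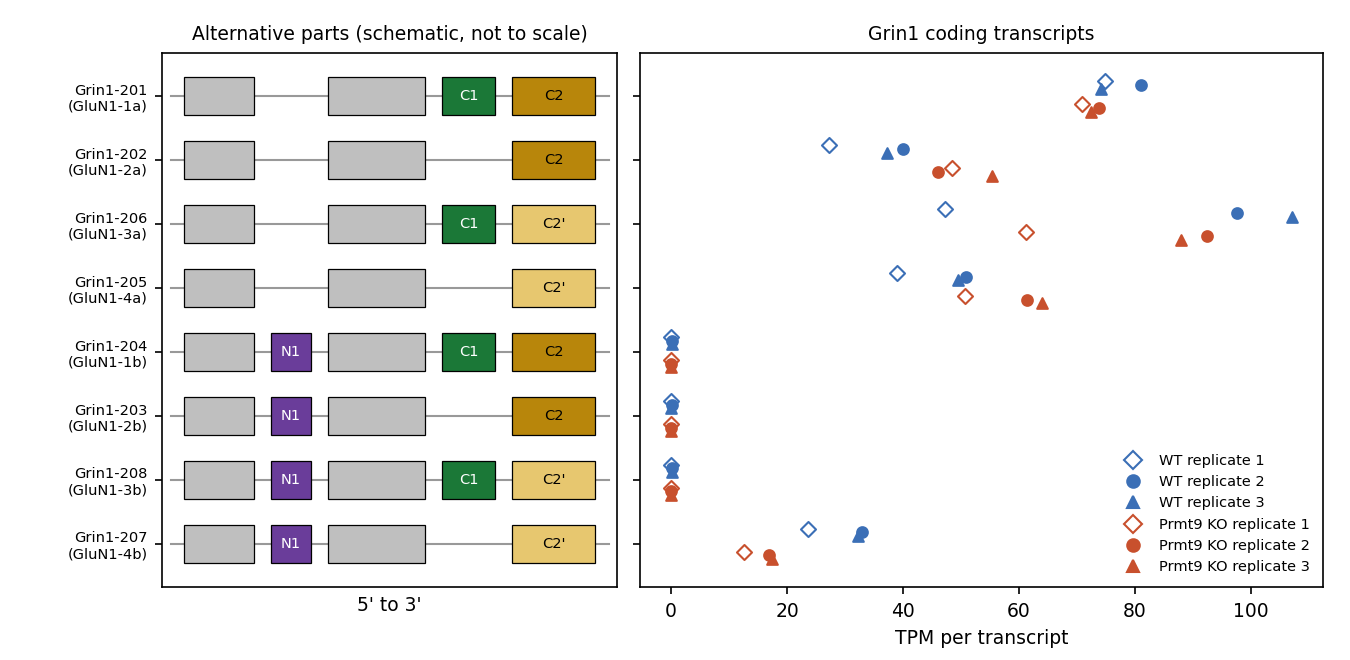
The 8 coding transcripts of Grin1, with their alternative parts drawn as boxes on the left (order only, not to scale) and the TPM of each transcript in each mouse on the right (x axis, linear). Blue points are WT and red points Prmt9 KO mice, and open diamonds are the mice numbered 1. Grin1-207 lay at 12.6 to 17.4 TPM in KO and 23.5 to 32.9 TPM in WT, Grin1-202 was higher in every KO mouse, and the other 3 forms with N1 lay near 0.

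The 4 coding transcripts without N1 carried most of Grin1. Grin1-206 (GluN1-3a, with C1 and C2') was the most abundant in 4 of the 6 mice, at 47.3, 97.7 and 107 TPM in WT and 61.3, 92.4 and 87.9 TPM in KO. Both mice numbered 1 were low in it, and the genotypes overlapped (log2 fold change −0.089, SE 0.21). Grin1-201 (GluN1-1a, with C1 and C2) was at 74.8, 81.1 and 74.1 TPM in WT and 70.9, 73.9 and 72.3 TPM in KO. Here every KO mouse lay below every WT mouse by a narrow margin, and the log2 fold change was −0.16 (SE 0.16).

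Both forms that lack C1 and N1 had higher means in KO. Grin1-202 (GluN1-2a, with C2) was at 27.2, 40.0 and 37.3 TPM in WT and 48.4, 46.0 and 55.3 TPM in KO. The genotypes did not overlap, and the log2 fold change was 0.47 (SE 0.12; edgeR, unadjusted p = 0.0086, adjusted p = 1). Grin1-205 (GluN1-4a, with C2') was at 39.0, 50.8 and 49.5 TPM in WT and 50.7, 61.4 and 63.9 TPM in KO. Its lowest KO mouse lay just under the highest WT mouse, and the log2 fold change was 0.27 (SE 0.10; edgeR, unadjusted p = 0.034, adjusted p = 1). The genotypes thus did not overlap for 3 of the 5 abundant coding forms, against 7.68% of the 79088 transcripts with a mean of at least 0.1 TPM in either genotype. The forms of 1 gene share its reads and are not independent of each other.

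Relative use of the 10 Grin1 transcripts that passed the filter was tested with edgeR's diffSpliceDGE, in which 23 of 13545 genes (0.17%) were called. The adjusted p of Grin1 was 1 (unadjusted p = 0.0722). The replicate numbers are not shown to pair the mice beyond those numbered 1. In a fit blocked on the number, the adjusted p of Grin1 was 0.00633 and past the limit of 0.01, with 13 genes called (0.096%). With a term for the mice numbered 1 it was 6.94e-05, with 52 genes called (0.384%). Without WT replicate 1 it was 3.16e-06, and without both mice numbered 1 it was 6.53e-09, with 250 genes called (1.83%). Under the 9 other settings it stayed between 0.106 and 1. For each of the other 6 subunit genes, the lowest adjusted p over the settings was 0.992.

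The C1 cassette was present in 0.576, 0.588 and 0.602 of the TPM of transcripts that span the site in WT and in 0.541, 0.569 and 0.539 in KO. The KO mice lay below the WT mice, with a gap that was small beside the spread. The means were 0.589 ± 0.013 and 0.550 ± 0.017 (SD, n = 3 each; exact permutation test, p = 0.1, adjusted p = 0.2). A split to the transcripts without N1 was added after the values were seen. Among these, C1 stood at 0.648, 0.663 and 0.676 in WT and at 0.572, 0.608 and 0.573 in KO. The difference was −0.0784 in place of −0.0388. The TPM with N1 that this split leaves out was placed nearly all on a form without C1. Its mean was 29.8 TPM in WT and 15.6 TPM in KO, so more was left out in WT. Whether the N1 transcripts hold C1 is not resolved by these values, so the larger difference is not read as a larger change in C1.

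C1 was also followed within each tail. In the transcripts that end in C2, its share was 0.733, 0.670 and 0.665 in WT and 0.594, 0.617 and 0.567 in KO, without overlap (limma, unadjusted p = 0.0221, adjusted p = 1). Within the numbers 1, 2 and 3 the KO mouse minus the WT mouse gave −0.139, −0.0534 and −0.0983. In the transcripts that end in C2', C1 was at 0.431, 0.539 and 0.567 in WT and 0.492, 0.541 and 0.519 in KO. The genotypes overlapped, and the means differed by 0.00520 (limma, unadjusted p = 0.908). This difference changes its sign without WT replicate 1 and without KO replicate 2. The C2' denominator also holds Grin1-207, which lacks C1 and on which nearly all N1 reads were placed. Grin1-207 stood at 23.5 to 32.9 TPM in WT and 12.6 to 17.4 TPM in KO, and the share without it was not calculated. Whether C1 differed more in one tail than in the other was not tested.

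Grin1 is named by the study among the splicing targets of Prmt9, from its own splicing analysis and RT-PCR, which were not repeated here. The study's RT-PCR primers for this exon read only the C2 side of these values. They are shown because their reverse primer ends at the C2 stop codon, and so pairs with no C2' transcript. The annotated product is 373 bases with C1 (Grin1-201 and Grin1-204) and 262 bases without it (Grin1-202 and Grin1-203).
Forward primer: GGTCTTCATGCTGGTGGCT
Reverse primer: TCAGCTCTCCCTATGACGG

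The choice between C2 and C2' overlapped between the genotypes. C2 took 0.482, 0.398 and 0.370 of the TPM in WT and 0.489, 0.410 and 0.429 in KO, and both mice numbered 1 were the highest of their genotype. Between mice of the same number, KO minus WT was 0.00688, 0.0123 and 0.0591, although the numbers are not shown to pair the mice. The means were 0.417 ± 0.058 and 0.443 ± 0.041 (SD, n = 3 each; exact permutation test, p = 0.5, adjusted p = 0.5). C2' took the remainder, 0.580 ± 0.056 and 0.554 ± 0.039, apart from the non-coding Grin1-210, whose acceptor lies just inside it. Among transcripts with C1, the C2 share was 0.613, 0.454 and 0.409 in WT and 0.536, 0.444 and 0.452 in KO (limma, unadjusted p = 0.815).

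Among transcripts without C1, the C2 share was 0.304, 0.324 and 0.314 in WT and 0.434, 0.370 and 0.405 in KO, without overlap (limma, unadjusted p = 0.0155, adjusted p = 1). The denominator of this share holds Grin1-207, on which the N1 reads were placed. When the transcripts with N1 were left out, it was 0.4115, 0.4403 and 0.4297 in WT and 0.489, 0.428 and 0.464 in KO, and the genotypes overlapped.

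**Figure D2:**
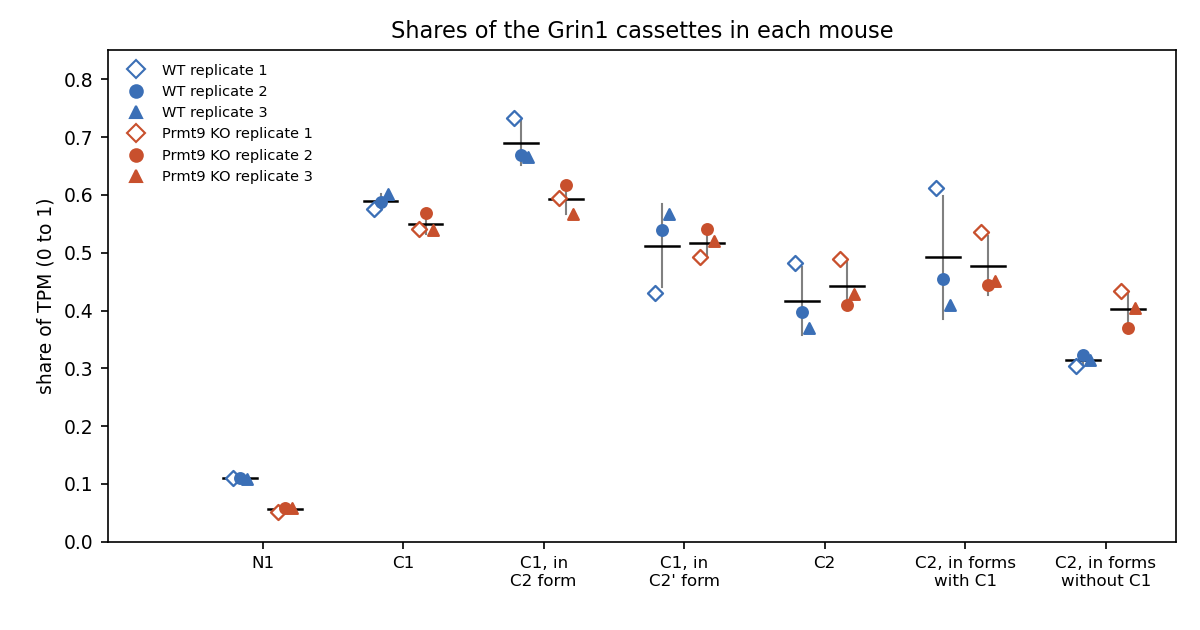
Shares of TPM (y axis, 0 to 1) that held N1, C1 or C2 among Grin1 transcripts in each mouse, with black lines for the means and grey bars for the SD of 3 mice. N1 lay at 0.108 to 0.111 in WT and 0.0518 to 0.0586 in KO, C1 did not overlap between the genotypes overall and in the C2 form, and the share of C2 overlapped.

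The other 6 transcripts of Grin1 are non-coding, and the coding transcripts held 0.933 to 0.959 of its TPM in each mouse. Grin1-212 was the highest of them, at 5.90 ± 2.12 TPM in WT and 6.88 ± 1.22 TPM in KO. Grin1-214, which retains intronic sequence around the N1 exon, was at 4.66 ± 1.92 and 4.07 ± 0.68 TPM, and Grin1-213 at 3.72 ± 1.18 and 3.28 ± 1.13 TPM. Grin1-211 was at 1.599 ± 0.861 and 1.66 ± 0.61 TPM, and Grin1-210 at 0.973 ± 0.941 and 0.782 ± 0.608 TPM (SD, n = 3 each). All of these overlapped between the genotypes. Grin1-214 is outside the N1 share, which was taken over coding transcripts. Reads that it may share with the N1 exon were not separated here. An antisense gene, Grin1os, overlaps C1 and the last exon at chr2:25291220-25298925 and was not analysed here. Whether the quantification used the strand of the reads is not given in the sources used here.

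As a whole gene, Grin1 did not differ between the genotypes beyond the spread between mice. It was at 221, 323 and 322 TPM in WT and at 256, 310 and 315 TPM in KO. The mice numbered 1 were the lowest of each genotype. The log2 fold change was −0.036 (SE 0.10; edgeR, adjusted p = 1). Of the 20298 genes tested none was called (0 genes, 0.0%), while 251 (1.24%) had an unadjusted p below 0.05 and DESeq2 called 3 (0.0106%). In bulk tissue, fewer cells that express a gene and less RNA per cell cannot be told apart.

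Among the GluN2 subunits, Grin2b was the most abundant in every mouse. GluN2B is the main GluN2 subunit of the young forebrain and gives receptors with slow currents, and Grin2b (chr6:135713233-136173511, reverse strand) was at 25.7, 54.6 and 52.1 TPM in WT and 38.0, 51.8 and 47.1 TPM in KO. WT replicate 1 was far below the other mice. The log2 fold change was 0.0098 (SE 0.20), and it was −0.12 without both mice numbered 1. GluN2A gives faster currents and gains ground as the forebrain matures. Grin2a (chr16:9567898-9995560, reverse strand) was at 15.9, 36.0 and 33.2 TPM in WT and 18.8, 34.9 and 31.6 TPM in KO. Again both mice numbered 1 were low, and the log2 fold change was −0.043 (SE 0.27).

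Grin2c encodes GluN2C, which is best known from the cerebellum and gives channels with weak magnesium block. It lies on the reverse strand at chr11:115249169-115267243 and was at 15.6, 31.0 and 30.2 TPM in WT and 12.9, 28.9 and 29.0 TPM in KO (log2 fold change −0.17, SE 0.32). The KO mouse was below the WT mouse of the same number in 3 of 3 comparisons, by differences of −2.70, −2.09 and −1.17 TPM, and the genotypes overlapped. Grin2d (chr7:45831883-45878378, reverse strand) encodes GluN2D, which is found in interneurons and gives the slowest currents. It was at 13.9, 11.8 and 11.6 TPM in WT and 18.3, 11.6 and 12.3 TPM in KO (log2 fold change 0.093, SE 0.29). In contrast to Grin2a, Grin2b and Grin2c, the mice numbered 1 were the highest of their genotype here.

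Grin3a encodes GluN3A, a subunit of the juvenile brain that lowers calcium flow. It lies on the reverse strand at chr4:49661611-49845744 and was at 16.0, 13.6 and 13.3 TPM in WT and 27.0, 14.3 and 12.6 TPM in KO, so that KO replicate 1 stood alone. The log2 fold change was 0.25 (SE 0.38), and −0.25 without KO replicate 1. Grin3b encodes GluN3B, known from motor neurons, and was the lowest of the 7. It was at 0.350, 0.336 and 0.431 TPM in WT and 0.296, 0.355 and 0.279 TPM in KO (log2 fold change −0.17, SE 0.24). Grin3b lies on the forward strand at chr10:79970715-79977190 and overlaps Tmem259 on the other strand, which was at a mean of 103.6 TPM, and without strand the reads of these genes cannot be told apart. For all 7 genes the TPM values of the genotypes overlapped, as they did not for 6.67% of 20294 genes tested, and the edgeR adjusted p was 1 for each.

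**Figure D3:**
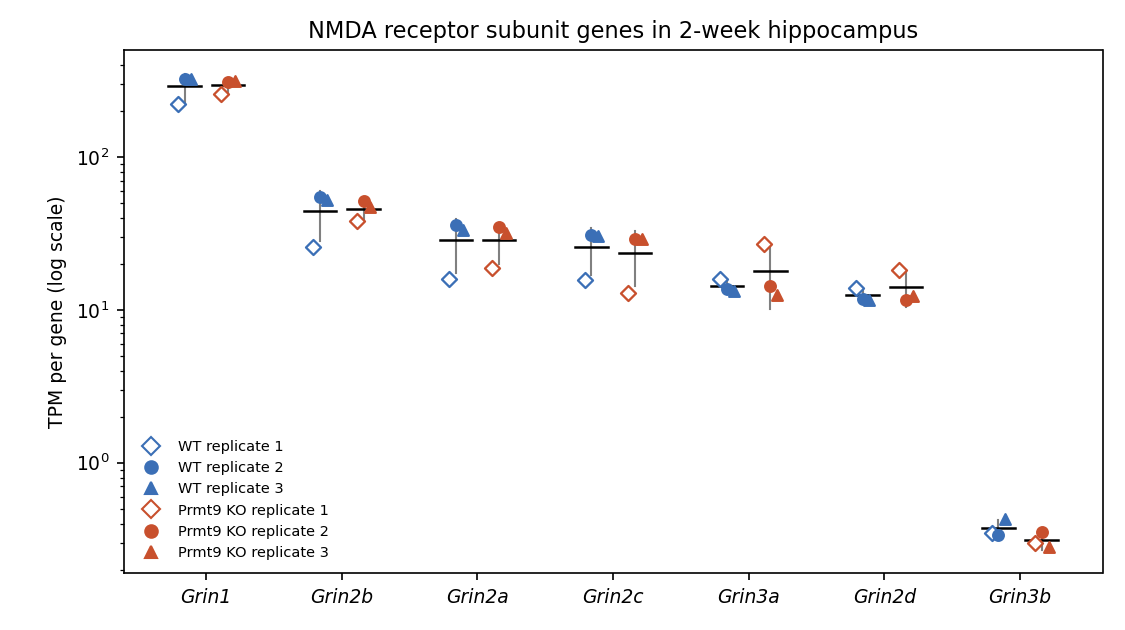
TPM of the 7 subunit genes in each mouse on a log axis, in order of their median, with black lines for the means and grey bars for the SD of 3 mice. Genotypes overlapped for every gene, Grin1 reached 221 to 323 TPM, Grin3b 0.279 to 0.431 TPM, and the open diamonds of the mice numbered 1 lay low for Grin1, Grin2a, Grin2b and Grin2c and high for Grin2d and Grin3a.

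TPM is scaled by transcript length, which puts these genes on a common scale. Their main transcripts differ in length, at 24060 bases for Grin2b-201, 14634 for Grin2a-206 and 4238 for Grin1-201. The mice numbered 1 had a shorter mean transcript length. Whether length bears on the order, shares and ratios given here and below was not tested. Their order by median over the 6 mice was Grin1 (313 TPM), Grin2b (49.5), Grin2a (32.4), Grin2c (29.0), Grin3a (13.95), Grin2d (12.1) and Grin3b (0.343). Each neighbouring pair had this order in 6 of 6 mice, except Grin2c above Grin3a, which held in 4 of 6 and was turned in KO replicate 1 and WT replicate 1. The ranges over mice were separate only for Grin1 against Grin2b and for Grin2d against Grin3b. Grin1 made up 68.6% to 71.7% of the summed TPM of all 7 genes in each mouse, Grin2b 8.33% to 11.6%, Grin2a 5.05% to 7.71% and Grin2c 3.47% to 6.59%. Grin2d took 2.51% to 4.92%, Grin3a 2.81% to 7.27% and Grin3b 0.0624% to 0.113%.

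The ratio of Grin2a to Grin2b, which is known to rise as forebrain synapses mature, was 0.621, 0.659 and 0.638 in WT and 0.494, 0.673 and 0.670 in KO. KO replicate 1 was the lowest, and the other KO mice lay just above the WT mice (exact permutation test on log2 ratios, p = 1). Grin2c to Grin2b was 0.607, 0.568 and 0.580 in WT and 0.339, 0.558 and 0.616 in KO. With all mice the mean log2 ratio, KO minus WT, was −0.076 for Grin2a to Grin2b and −0.26 for Grin2c to Grin2b. Without both mice numbered 1 both turned sign, to 0.051 and 0.032.

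Grin2d to Grin2b split the mice by number and not by genotype, at 0.540 and 0.482 in the mice numbered 1 and between 0.217 and 0.262 in the others. Grin3a to Grin1 did the same, at 0.0724 and 0.105 against 0.0400 to 0.0461. Grin1 to the sum of the 4 GluN2 genes was 3.11, 2.42 and 2.53 in WT and 2.91, 2.44 and 2.62 in KO. All 12 ratios and shares overlapped between the genotypes, and each had an adjusted p of 1 over the 12 (exact permutation test).

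**Figure D4:**
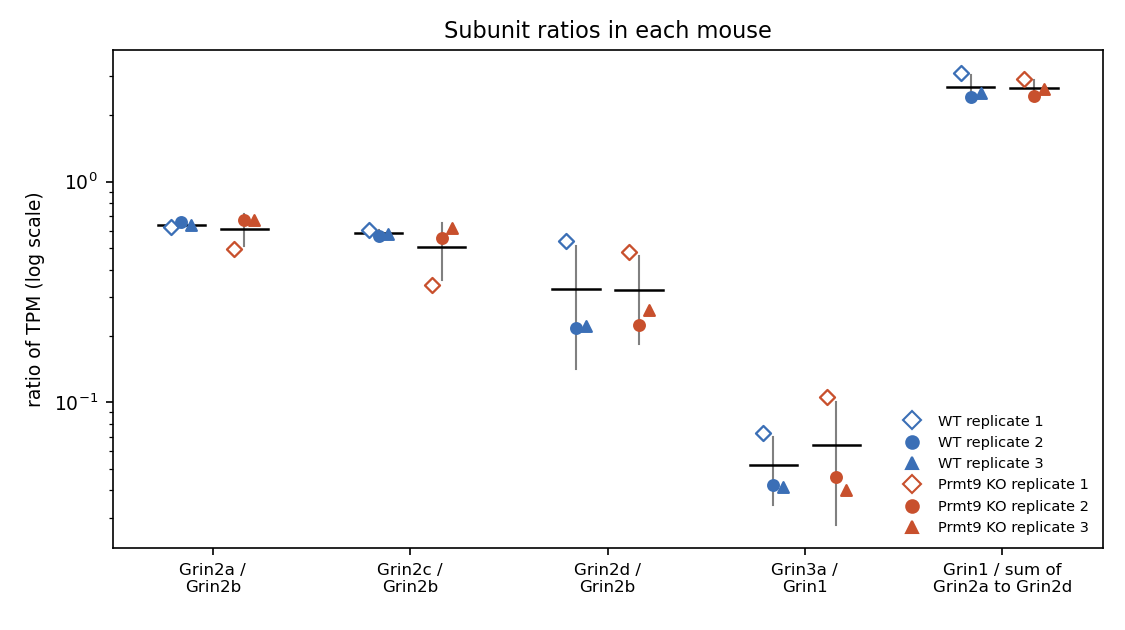
Ratios of TPM between subunit genes in each mouse on a log axis, with black lines for the means and grey bars for the SD of 3 mice. The ratio of Grin2a to Grin2b lay between 0.494 and 0.673, that of Grin1 to the GluN2 sum between 2.42 and 3.11, and the mice numbered 1 lay high for Grin2d to Grin2b and Grin3a to Grin1.

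Of the other subunit genes, Grin3a was the only one with a splicing event that could be tested. Its segment of 60 bases (20 codons) at chr4:49665566-49665625, added by an upstream 3' splice site in the coding sequence, separates Grin3a-202 from Grin3a-201. It is in capitals below, with 20 bases on each side.
Grin3a segment: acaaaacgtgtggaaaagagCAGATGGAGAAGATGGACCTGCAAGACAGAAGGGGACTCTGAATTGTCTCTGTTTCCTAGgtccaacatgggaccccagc

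The segment was present in 0.183, 0.229 and 0.169 of the TPM in WT and 0.196, 0.220 and 0.236 in KO, and the genotypes overlapped (limma, unadjusted p = 0.378, adjusted p = 1). Grin3a-201, without the segment, was at 11.02 ± 1.45 TPM in WT and 13.5 ± 6.4 TPM in KO, and Grin3a-202 at 2.63 ± 0.43 and 3.62 ± 1.27 TPM (SD, n = 3 each). Grin2a-206 held 92.9% of the Grin2a TPM in WT and 93.4% in KO, and the single-exon Grin2a-204 most of the rest. Grin2b-201 held 93.1% and 93.2% of the Grin2b TPM, and Grin2b-203 was next at 2.59% and 2.34%.

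Grin2c was the one GluN2 gene with a pair of forms at like levels. Grin2c-201 and Grin2c-202 differ in their 5' exons and share a coding length of 3717 bases, and Grin2c-202 took 0.446, 0.560 and 0.603 of their TPM in WT and 0.490, 0.590 and 0.579 in KO. Grin2d-201 was at 8.97 ± 1.13 and 10.4 ± 3.2 TPM and Grin2d-203 at 2.10 ± 0.20 and 2.12 ± 0.22 TPM. Grin3b-203 was at 0.215 ± 0.052 and 0.123 ± 0.033 TPM, without overlap (log2 fold change −0.94, SE 0.50, edgeR, unadjusted p = 0.109), and Grin3b-201 at 0.157 ± 0.080 and 0.178 ± 0.014 TPM (SD, n = 3 each). Of transcripts with a mean of at least 0.1 TPM in either genotype, 7.68% did not overlap. Grin3b-203 rests on 19.4 to 51.7 estimated counts per mouse. The part of Tmem259 reads in the Grin3b transcripts was not tested.

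The proteins that anchor, modify and supply NMDA receptors were followed in a list of 58 genes. All 58 were tested, 0 were called and 0 had an unadjusted p below 0.05 in edgeR, where 0.0% and 1.24% of all genes did. DESeq2 called 0 of the 58 and 3 of all 28206 genes it tested (0.0106%). The median log2 fold change of the 58 was −0.054, against −0.011 over all genes tested. Of the 58, 20 were above 0 and 38 below, beside 9529 above and 10769 below among all genes tested. Among the 11 scaffolds, Actn2, which links the receptor to actin, had the highest log2 fold change (0.19, SE 0.19) and Shank1, a postsynaptic density scaffold, the lowest (−0.15, SE 0.19). Among the 14 kinases and phosphatases these were Ptpn5 (0.063, SE 0.14), the phosphatase STEP that acts on GluN2B, and Ppp3ca (−0.14, SE 0.17), a catalytic subunit of calcineurin. Among the 9 trafficking genes they were Cask (0.068, SE 0.17) and Lin7b (−0.37, SE 0.34), partners in a complex that carries NMDA receptors.

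Among the 12 genes of co-agonist and glutamate handling, Dao, which degrades D-serine, had 0.43 (SE 0.65) at under 1 TPM in every mouse, and Phgdh, the first enzyme of serine synthesis, −0.30 (SE 0.24). Slc1a5, a transporter of neutral amino acids that is named here after its values were seen, was the 1 partner of 58 whose TPM did not overlap, against 6.67% of all genes tested, at 5.44, 5.17 and 4.68 in WT and 3.70, 3.77 and 4.56 in KO. Among the 12 modulators, Lrp8, a reelin receptor, had 0.50 (SE 0.23) and Nos1, neuronal nitric oxide synthase, −0.21 (SE 0.27). The fold change of Lrp8 comes from counts, whereas its TPM, corrected for transcript length, was 48.2 ± 8.0 in WT and 48.3 ± 2.9 in KO (SD, n = 3 each).

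RNA-binding proteins that act on neuronal cassette exons formed a list of 19 genes. All 19 were tested, 0 were called and 0 had an unadjusted p below 0.05 in edgeR, against 0.0% and 1.24% of all genes, and DESeq2 called 0 (0.0106% of all genes). The log2 fold changes ran from −0.13 to 0.16. The highest were Srrm4 (0.16, SE 0.13), a regulator of neuronal microexons, and Ptbp1 (0.12, SE 0.11), a repressor of neuronal exons. The lowest were Khdrbs1 (−0.13, SE 0.10), which encodes SAM68, and Mbnl2 (−0.12, SE 0.24), a muscleblind protein. TPM did not overlap between the genotypes for 1 of the 19, Hnrnpf, against 6.67% of all genes tested. Hnrnpf, named here after its values were seen, was at 92.2, 98.4 and 100.3 TPM in WT and 108.9, 101.3 and 102.0 TPM in KO. Its log2 fold change from counts was 0.018 (SE 0.14).

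**Figure D5:**
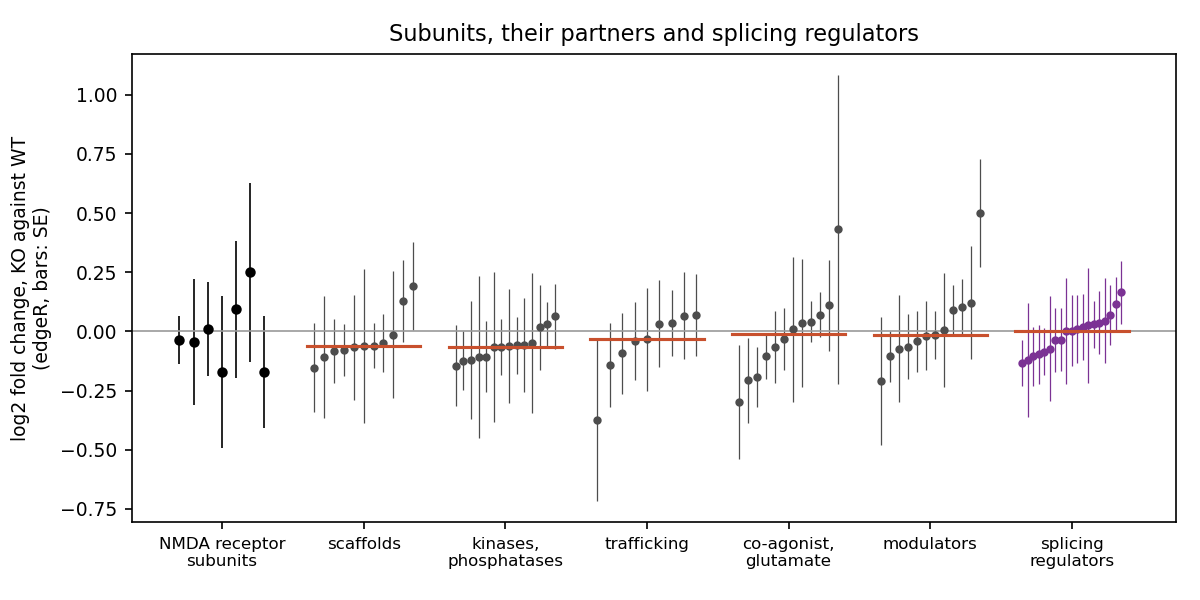
Log2 fold changes of Prmt9 KO against WT (y axis, edgeR, bars for the SE) of the 7 subunits in the order Grin1, Grin2a to Grin2d, Grin3a and Grin3b, of 58 partner genes in 5 groups and of 19 splicing regulators, with red lines for the group medians. The partners ran from −0.37 to 0.50 around a median of −0.054, and 0 of the genes shown was called.

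Over the 6 mice, the genes whose pattern was most like that of Grin1 included Ago2 and Add1, with Pearson's r of log2(TPM + 1) of 0.9998 and 0.9997 among 11834 genes. For Grin2a these were Dok6 (0.9992), Slc35f3 (0.9991) and Chn1 (0.9989), and for Grin2b Arhgap20 (0.9994), Cep68 (0.9993) and Rab6a (0.9993). Among the subunits, Grin1 followed Grin2b (0.980) and Grin2a (0.978), and Grin2d followed Grin3a (0.962), while Grin2c and Grin2d ran opposite (−0.925). All 6 points share the split of the mice numbered 1 from the others, and these values are given as a description.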

How the data were processed

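The authors sequenced polyadenylated RNA of 3 WT and 3 Prmt9 KO hippocampi. For each mouse they deposited estimated counts and TPM per Ensembl transcript from kallisto, and a table of TPM summed per gene. The labels name STAR 2.7.1a and kallisto 0.46.0, with GRCm38 as the build. Of 118783 transcripts, 116515 matched GENCODE M21 by versioned identifier, and the remaining 2268 were dropped. Estimated counts were rounded, summed per gene and compared with edgeR 4.0.16 (R 4.3.3): quasi-likelihood tests after TMM scaling and filterByExpr for genes and transcripts (threshold: adjusted p < 0.01 with fold change > 1.5) and diffSpliceDGE with Simes tests for usage (adjusted p below 0.01), all with Benjamini-Hochberg adjustment. Splicing events were built from annotated exons. Their PSI was the including share of the TPM of including and excluding transcripts. An event needed a sum of 1 TPM in each mouse and, in one genotype or both, a mean PSI of 0.05 to 0.95. They were compared with limma 3.58.1 on log2 ratios with 0.1 TPM added (threshold: adjusted p 0.01, PSI difference 0.05). Cassette shares and ratios were compared with exact permutation tests. DESeq2 1.42.0 and other settings were tried, and the tests were run on simulated data. The simulated mice were drawn independently, without the split of the mice numbered 1, so that check does not cover it.

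Totals of estimated counts ran from 194098391 to 286771677. The labels number the mice 1 to 3 in each genotype. The deviations of same-numbered mice from their genotype means correlated at 0.552, 0.417 and 0.377 for the numbers 1, 2 and 3. Each passed the rule used for pairing, over 0.1, but numbers 2 and 3 were not told apart (0.399 and 0.408 across them). The values thus set the mice numbered 1 apart and do not establish pairs, so the fit blocked on the number is given as an alternative. Groups came from the labels.

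Text names the 7 genes, Grin1 transcripts of at least 0.1 TPM in a genotype, the 2 most abundant transcripts of the other genes, cassette events, the highest and lowest member of each partner group, the 2 highest and lowest splicing regulators, and the 3 genes most correlated with Grin1, Grin2a and Grin2b. One of those for Grin1 is not reported here. Members and lists were chosen with earlier results of these data known. Exon sequences came from GENCODE and primers from the study's primer list.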

Additional observations from a re-analysis of the deposited data

How the results depend on the processing

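Over the alternatives run, the difference ran from −0.0548 to −0.0507 in the N1 share and from −0.109 to −0.0751 in the C1 share in C2 forms. Every KO mouse lay below every WT mouse in both shares, so leaving mice out could not turn the direction. Some other settings used the same shares and could not change them either. The difference in the C2 share without C1 ran from 0.0686 to 0.106 and was 0.0330, against 0.0891, without the N1 transcripts. The replicate block changed the call of Grin1 transcript usage given above and no other call named here. Genes called for transcript usage moved from 23 to 13 with the block, 52 with a term for the mice numbered 1, 250 without both of them, 1 with at least 10 counts in every mouse, 4 with voom and limma, and 9 to 142 when single mice were left out (142 without WT replicate 1, 9 without Prmt9 KO replicate 3). Genes called for expression were 3 with DESeq2 and 1 with the term or without both mice numbered 1, against 0, and the 1 was Prmt9. The C1 difference became −0.0784 without the N1 transcripts. That setting was added after the data were seen, and it drops TPM that was placed nearly all on a form without C1.

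Values near 0 turned sign. When single mice were left out, log2 fold changes ran from −0.074 to 0.0087 for Grin1, −0.23 to 0.15 for Grin2a, −0.17 to 0.14 for Grin2b, −0.34 to 0.11 for Grin2c, −0.21 to 0.35 for Grin2d, −0.25 to 0.50 for Grin3a and −0.27 to 0.054 for Grin1-206, and differences from −0.0356 to 0.0327 for C1 in C2' forms and −0.0559 to 0.0460 for C2 after C1. Without both mice numbered 1 these became −0.12 for Grin2b, −0.00038 for Grin3a, −0.0228 for C1 in C2' forms and 0.0165 for C2 after C1. Of the 12 subunit ratios and shares, each but the Grin3b share turned sign when some mouse was left out; Grin2a to Grin2b ran from −0.15 to 0.071 and Grin2c to Grin2b from −0.43 to 0.0053. With limma on log2(TPM + 1) and log2(TPM + 0.1), Grin1 was at 0.0412 and 0.0414 and Grin2a at 0.0353 and 0.0381. The causes were not tested. Transcript values rest on kallisto's split of shared reads, which depth does not resolve.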
